A study of Mus musculus with 18 samples.

Results

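The hypoxia-inducible factors (HIFs) and the enzymes that sense oxygen for them were followed in cultured mouse marrow cells. The set held 9 genes, taken by name from a table of 27179 genes because of their place in the pathway: the alpha subunit genes Hif1a, Epas1 and Hif3a, the beta subunit gene Arnt, the ubiquitin ligase gene Vhl, the prolyl hydroxylase genes Egln1, Egln2 and Egln3, and the asparaginyl hydroxylase gene Hif1an. All 9 were in the table, and 8 were abundant enough to test (mean over the libraries of 10 normalized counts or more). Hif3a was not, and is described without a test.

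Primary mesenchymal stem cells (MSCs) from the bone marrow of C57BL6 mice were profiled by RNA sequencing at day 7 in 18 libraries. The 6 Young libraries came from MSCs of mice aged 6 weeks and the 6 Old libraries from MSCs of mice aged 18 to 24 months, both cultured by themselves. The 6 Rejuvenated Old libraries came from old MSCs kept in the same wells as young MSCs, with a porous filter (0.4 µm) between the layers. Wells received 100000 old MSCs, all cells were kept in alpha-MEM with serum at the same incubator settings, and no low-oxygen exposure was described for any group. Old MSCs facing a layer of old MSCs were not analysed here, so the presence of a second cell layer and the age of that layer cannot be told apart. The labels call the replicates biological, but nothing in them ties replicates to separate animals. The p-values therefore measure the spread between these samples, which may be technical. Values are normalized counts, that is, read counts divided by a single size factor for each library, and libraries held 22936251 to 29559194 reads.

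Features of the libraries that touch the results were checked first. Transcripts of 4 Y-linked genes (Ddx3y, Eif2s3y, Kdm5d and Uty) summed to 0 to 5 reads in the Young libraries, against 5013 to 5584 in Old and 5259 to 6339 in Rejuvenated Old libraries, although the study describes its donors as male. Xist, the transcript of the inactive X chromosome, had 19 to 40 reads in Young libraries and 2 to 15 in the others. The transcript of Cd34, a surface marker that the study describes as absent from its MSCs, lay between 6787 and 7191 normalized counts in Young and between 19.4 and 28.0 in Old libraries; it was singled out after its values were seen. A list of 15 macrophage markers summed to 958 to 1074 normalized counts in Young, 16581 to 20623 in Old and 16627 to 20214 in Rejuvenated Old libraries, and 14 of its 15 genes were lower in Young. In the same order, 10 stromal markers summed to 155812 to 169064, 338001 to 356597 and 341137 to 383021, with 4 genes higher and 6 lower in Young than in Old. The sums of 7 osteoclast markers were 376 to 444, 4312 to 4603 and 3701 to 4732. Of the 3 that were tested, 2 were higher and 1 lower in Young. Age, Y-linked transcripts and this makeup therefore move together between the Young libraries and the rest, and their parts in any contrast with Young cannot be told apart. Old and Rejuvenated Old libraries overlapped in the Y-linked and in the macrophage sums. Replicate 1 of Rejuvenated Old stood apart: 8 genes with a Young mean over 1000 and at most 5 normalized counts in any Old library reached 1.55% of their Young level there, against 0.0373% to 0.101% in the other Rejuvenated Old libraries. For the genes of the set, results are given with and without that library where it changed a call. For the gene lists, only the numbers called are given without it, and not the single genes.

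Cells make HIF alpha subunits all the time and control them mainly at the level of the protein. When oxygen is present, the EGLN prolyl hydroxylases mark the alpha subunits, VHL binds the mark and the subunits are destroyed; the asparaginyl hydroxylase encoded by Hif1an blocks the contact of the surviving subunits with the coactivators p300 and CBP. When oxygen is scarce, the alpha subunits pair with ARNT, bind a short DNA core and switch on genes of glycolysis, of blood vessel growth and of the pathway's own brakes, among them Egln1 and Egln3. In marrow the pathway is known for its role in stem cell niches, where oxygen is low. Protein was not measured here, so each value below is a transcript level.

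The letters of that DNA core, ACGTG or GCGTG on either strand, were searched in the 250 bases before each RefSeq start in GRCm38.p6. They were found for 6 of the 8 genes with an entry: Hif1a, Hif3a, Arnt, Egln1, Egln2 and Egln3, and not for Vhl or Hif1an. No entry was used for Epas1. Of all 32851 promoter windows, 38.6% held a core (16.6% ACGTG and 28.2% GCGTG). The windows of Hif1a and of the 3 prolyl hydroxylase genes are shown because the results on Hif1a and on the sensors turn on these genes, on the strand of each gene, 5′ to 3′, with the matched letters in capitals. They lie at chr12:73907617-73907866 on the plus strand for Hif1a and, on the minus strand, at chr8:124949325-124949504 for Egln1, chr7:27166803-27167052 for Egln2 and chr12:54203875-54204124 for Egln3. For Egln1 the last 70 bases of the window, which hold its ACGTG match, overlapped an annotated exon and are left out. The Hif1a window lies before its RefSeq start but inside the longer annotated gene, which begins at 73901375. Its overlap with exons was not checked.
Hif1a: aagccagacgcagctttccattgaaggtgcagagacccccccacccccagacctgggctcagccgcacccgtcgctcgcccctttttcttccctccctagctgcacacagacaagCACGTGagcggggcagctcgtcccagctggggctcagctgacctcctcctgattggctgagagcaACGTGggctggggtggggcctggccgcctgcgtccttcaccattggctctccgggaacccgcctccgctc
Egln1: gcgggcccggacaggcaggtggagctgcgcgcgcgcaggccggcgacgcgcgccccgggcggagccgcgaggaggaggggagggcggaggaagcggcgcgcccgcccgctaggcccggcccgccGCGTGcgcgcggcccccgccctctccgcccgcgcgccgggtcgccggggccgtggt
Egln2: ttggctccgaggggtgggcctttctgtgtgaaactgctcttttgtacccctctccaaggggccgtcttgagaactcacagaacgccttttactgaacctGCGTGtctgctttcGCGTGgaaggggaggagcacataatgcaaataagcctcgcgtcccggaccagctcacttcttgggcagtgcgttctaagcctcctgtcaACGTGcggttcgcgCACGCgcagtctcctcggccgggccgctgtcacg
Egln3: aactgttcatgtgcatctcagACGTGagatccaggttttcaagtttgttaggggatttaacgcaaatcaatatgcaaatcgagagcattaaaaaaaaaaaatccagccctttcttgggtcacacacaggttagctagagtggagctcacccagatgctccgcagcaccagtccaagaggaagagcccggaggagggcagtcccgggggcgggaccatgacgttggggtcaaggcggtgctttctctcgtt
Egln3 held 1 ACGTG core 229 bases before its start. Egln1 held 2 cores, 126 and 68 bases before its start. Egln2 held 4 before its first start, at 151, 137, 48 and 34 bases. In Hif1a the cores at 135 and 134 bases overlap on opposite strands, and another match lay at 70 bases. These are matches of letters and not binding sites.

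The alpha subunit genes gave the widest contrast of the set. Epas1 (chr17:86753700-86833410, plus strand, mm10), which encodes HIF-2α, was nearly silent in Young libraries and abundant in all others. Its normalized counts were 54.8 at the lowest, 58.7 at the median and 72.9 at the highest in Young, 7100, 7334 and 7698 in Old, and 6535, 7556 and 8877 in Rejuvenated Old libraries. No Young library came near the others, whereas Old and Rejuvenated Old overlapped. On the log2(value + 1) scale Epas1 was lower in Young than in Old by a difference of -6.89 (SE 0.07, adjusted p = 2.61e-27, limma with Benjamini-Hochberg adjustment over 14353 genes), a 119-fold difference. Of the genes tested, 134 had a lower value in this contrast. Co-culture left Epas1 at a difference of 0.04 from Old (95% interval -0.11 to 0.18, adjusted p = 0.720, limma), and the Rejuvenated Old libraries stayed 6.93 above Young (SE 0.07, adjusted p = 2.52e-27, limma). The 8 tested genes within 500000 bases of Epas1 differed between Young and Old by -0.88 to 0.30 on the same scale, none of them near the difference of Epas1 itself.

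Epas1 is also known as a gene of endothelial cells, and macrophages can express it, so the markers of both were set beside it. The 9 endothelial markers summed to 246 to 335 normalized counts in Young, 205 to 237 in Old and 187 to 224 in Rejuvenated Old. Egfl7 had the highest mean of them over the 18 libraries, at 166 normalized counts. Kdr, Tek, Esam and Pecam1 were also detected, with means of 33.1 or less. Cldn5 had no read in any library, and Cdh5, Tie1 and Emcn were at or near 0 throughout. All 4 endothelial markers that were tested passed between Young and Old, with 3 higher and 1 lower in Young (limma). An endothelial part in the Epas1 contrast was not tested. The macrophage sum did move with Epas1 between Young and the rest, with Adgre1 and Ptprc at 0 in every Young library, and its part in the Epas1 contrast was not tested. Mean Epas1 in Old libraries was 7351 ± 241 normalized counts (SD, n = 6), and its gene model spans 5590 exon bases. In bulk RNA, fewer cells of a type and less RNA per cell cannot be told apart.

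**Figure D1:**
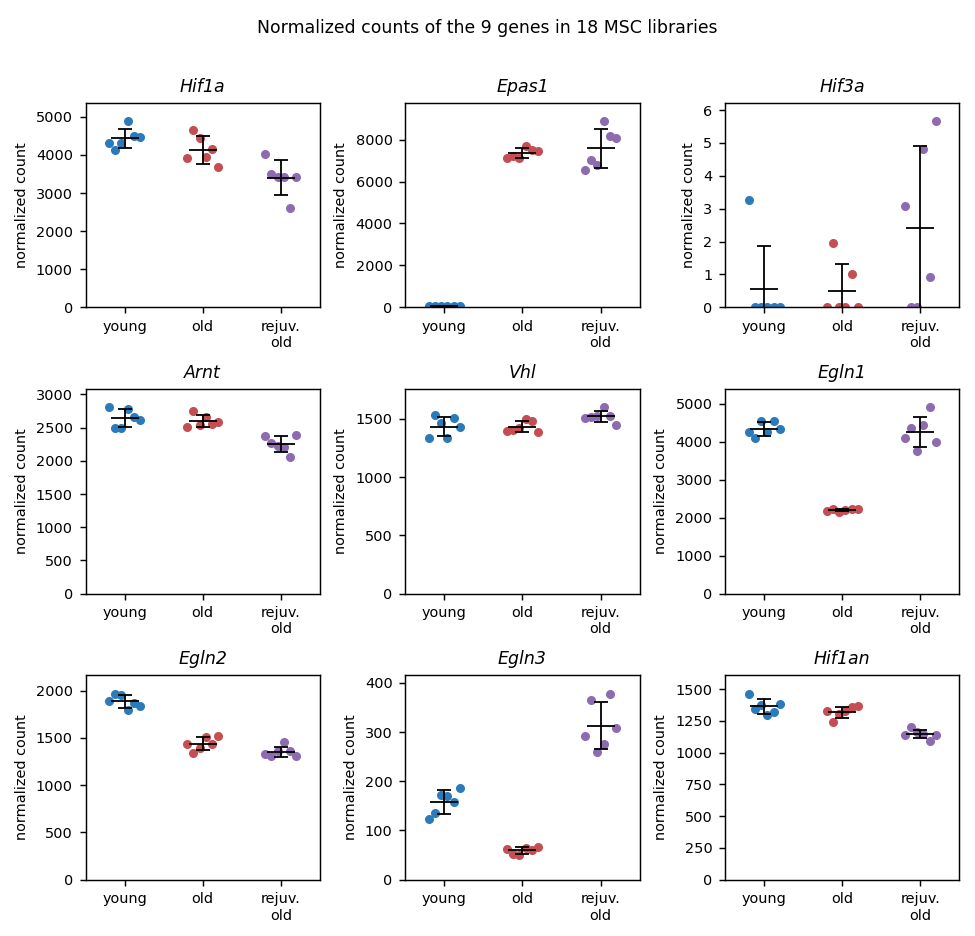
Normalized counts (y axis, linear from 0, own scale in each panel) of the 9 genes in the 6 Young, 6 Old and 6 Rejuvenated Old libraries; points are libraries and the bars give mean ± SD. Epas1 lies at 54.8 to 72.9 in Young libraries and at 6535 or more in the others, Egln1 at 2160 to 2240 in Old libraries and at 3769 or more in the others, and Egln3 rises from Old through Young to Rejuvenated Old libraries.

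Hif1a (chr12:73901375-73947530, plus strand), which encodes HIF-1α, was expressed at similar levels in Young and Old MSCs and was lower after co-culture. The lowest, median and highest normalized counts were 4139, 4401 and 4886 in Young, 3685, 4050 and 4651 in Old, and 2601, 3422 and 4035 in Rejuvenated Old libraries. Young and Old overlapped, Old and Rejuvenated Old overlapped, and every Rejuvenated Old library lay below every Young library. Young differed from Old by 0.11 on the log2(value + 1) scale (95% interval -0.04 to 0.26, adjusted p = 0.174, limma). Hif1a fell with co-culture by 0.29 against Old (SE 0.07, adjusted p = 0.00304, limma), and by 0.34 without Rejuvenated Old replicate 1, which had the highest count of its group. The difference from Young was -0.39 (adjusted p = 3.19e-05, limma). The genes of chromosome 12 had a median difference of -0.46 between Young and Old, and with each library centred on its chromosome medians Hif1a was 0.57 higher in Young than in Old (adjusted p = 3.66e-07, limma) and differed by -0.89 between Rejuvenated Old and Young (adjusted p = 2.68e-10, limma); that part of the Young contrast was not tested further. Exons of Hif1a share 330 bases with the antisense transcript Gm15283, and the strand setting of the counting is not given in the sources used here, so reads of both cannot be told apart there. They also share 148 bases with Gm49321, a protein-coding gene on the same strand, which no strand setting would separate.

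Per kilobase of exon, which adjusts for gene length, the makeup of the alpha subunit transcripts differed between groups. The exon lengths are those of GENCODE M21 and may differ from the gene models used in the counting. Shares between genes are therefore approximate, here and for the prolyl hydroxylase genes below. Epas1 made up 65.3% ± 2.39 (SD, n = 6) of the Hif1a plus Epas1 level in Old, 70.0% ± 4.82 in Rejuvenated Old and 1.44% ± 0.194 in Young libraries. Young libraries shared no value with the other groups, and Old (62.0% to 68.1%) and Rejuvenated Old (63.1% to 76.8%) overlapped. The sum of both was 2016 ± 56.0 normalized counts per kb in Old, 1933 ± 139 in Rejuvenated Old and 764 ± 42.7 in Young libraries.

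**Figure D2:**
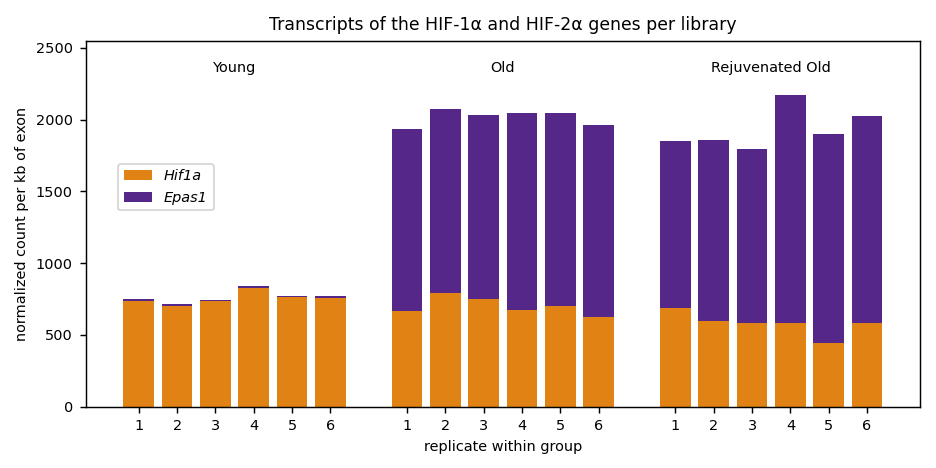
Normalized count per kilobase of exon (y axis) of Hif1a and Epas1, stacked, in each of the 18 libraries (x axis, replicate number within group). The Hif1a part is of similar height in Young and Old libraries, and the Epas1 part is present in Old and Rejuvenated Old libraries and makes up 1.44% of the sum on average in Young ones.

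Hif3a (chr7:17031507-17062427, minus strand), whose products include inhibitors of the other alpha subunits, was barely detected. It had 3 reads over the 6 Young libraries, 3 over the 6 Old and 15 over the 6 Rejuvenated Old libraries, with no library above 6 reads. In a fit with no filter on low values, the adjusted p was 0.172 for Rejuvenated Old against Old and 0.915 for Young against Old, and for Rejuvenated Old against Young the difference was 1.03 with an adjusted p of 0.0690 (limma, unadjusted p = 0.0461).

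Arnt and Vhl encode products that act with every alpha subunit. Arnt was modestly lower after co-culture, and Vhl varied little. Arnt (chr3:95434388-95497240, plus strand) had 2497 to 2805 normalized counts in Young (median 2636), 2509 to 2746 in Old (median 2570) and 2062 to 2384 in Rejuvenated Old libraries (median 2250). The Rejuvenated Old libraries lay below all others. Arnt fell with co-culture by 0.20 against Old on the log2(value + 1) scale (SE 0.04, adjusted p = 1.93e-04, limma) and by 0.23 against Young (adjusted p = 1.04e-05, limma). Young differed from Old by 0.02 (95% interval -0.06 to 0.10, adjusted p = 0.573, limma). Vhl (chr6:113623959-113631633, plus strand) had 1333 to 1536 normalized counts in Young (median 1448), 1391 to 1501 in Old (median 1414) and 1448 to 1599 in Rejuvenated Old libraries (median 1520), and all groups overlapped. Its difference from Old was 0.00 in Young (95% interval -0.08 to 0.08, adjusted p = 0.995, limma) and 0.09 in Rejuvenated Old libraries (95% interval 0.01 to 0.16, adjusted p = 0.0756, limma). Rejuvenated Old libraries were above Young by 0.09 for Vhl (adjusted p = 0.0411, limma), a call that was lost under 6 of 11 alternatives and in 8 of 18 fits that left out a library, Rejuvenated Old replicate 1 among them (adjusted p = 0.0503).

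Among the oxygen sensors, 2 of the 3 prolyl hydroxylase genes rose with co-culture. Egln1 (chr8:124908587-124949324, minus strand) encodes PHD2, the main hydroxylase of HIF-1α at normal oxygen. Its lowest, median and highest normalized counts were 2160, 2210 and 2240 in Old, 3769, 4235 and 4909 in Rejuvenated Old, and 4099, 4297 and 4552 in Young libraries. The Old libraries formed a narrow band below all others, and Young and Rejuvenated Old overlapped. Against Old, Egln1 was 0.95 higher on the log2(value + 1) scale in Rejuvenated Old (SE 0.05, adjusted p = 2.67e-13, limma) and 0.98 higher in Young libraries (SE 0.05, adjusted p = 2.57e-15, limma). These contrasts share the Old libraries. The mean in Rejuvenated Old covered 96.6% of the difference in mean normalized count from Old to Young, and Rejuvenated Old differed from Young by -0.03 (95% interval -0.12 to 0.07, adjusted p = 0.561, limma). With all libraries scaled to the same total this difference became -0.12 (adjusted p = 0.0176).

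Egln3 (chr12:54178981-54203860, minus strand), which encodes PHD3, was the least abundant of the 3 and moved most. Its lowest, median and highest normalized counts were 49.6, 61.8 and 65.4 in Old, 123, 164 and 186 in Young, and 260, 300.5 and 378 in Rejuvenated Old libraries. No library of any group overlapped another group. Egln3 was 2.37 higher in Rejuvenated Old than in Old libraries on the log2(value + 1) scale (SE 0.11, adjusted p = 2.57e-13, limma), a 5.18-fold difference that 11 of the 14353 genes tested exceeded upward. Young libraries were 1.38 above Old (SE 0.11, adjusted p = 9.05e-11, limma), and Rejuvenated Old libraries were 0.99 above Young (SE 0.11, adjusted p = 3.13e-08, limma). The change with co-culture thus ran past the Young level, at 259% of the difference in mean normalized count from Old to Young. On chromosome 12, where Egln3 also lies, the median of all genes was -0.46 between Young and Old and 0.01 between Rejuvenated Old and Old. Centred on chromosome medians, Egln3 was 1.85 higher in Young than in Old and 0.49 higher in Rejuvenated Old than in Young libraries (adjusted p = 2.69e-04, limma), so the size of the step past Young depended on this choice.

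Egln2 (chr7:27158658-27166802, minus strand), which encodes PHD1, did not follow the other prolyl hydroxylase genes. Its normalized counts were 1344 to 1515 in Old (median 1436), 1305 to 1453 in Rejuvenated Old (median 1344) and 1799 to 1968 in Young libraries (median 1883). Young libraries lay above the others, and Old and Rejuvenated Old overlapped. Rejuvenated Old differed from Old by -0.09 on the log2(value + 1) scale (95% interval -0.16 to -0.01, adjusted p = 0.0520, limma), which passed the threshold under 5 of 11 alternatives: edgeR (adjusted p = 0.0443), DESeq2 (0.0355), a minimum mean of 50 (0.0476), scaling to the same total (0.0210) and centring on chromosome medians (0.00190). It also passed without Old replicate 2, Old replicate 3 or Rejuvenated Old replicate 4 (adjusted p = 0.0215, 0.0474 and 0.0176, limma). Against Young, Egln2 was lower after co-culture by a difference of -0.48 (adjusted p = 1.98e-11, limma), which shrank to -0.05 and was no longer called with each library centred on its chromosome medians (adjusted p = 0.195, limma). Young was 0.39 above Old (SE 0.04, adjusted p = 7.50e-10, limma), but the median of chromosome 7 was 0.61 in the same contrast, and centred on chromosome medians Egln2 was lower in Young by a difference of -0.10 (adjusted p = 0.0140, limma).

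The balance of the prolyl hydroxylase transcripts per kilobase differed accordingly. Egln1 made up 53.4% ± 1.24 (SD, n = 6) of the 3 in Old, 66.3% ± 1.41 in Rejuvenated Old and 62.2% ± 1.08 in Young libraries. Egln2 made up 44.7% ± 1.12, 27.1% ± 1.89 and 34.7% ± 1.34 in the same order, and Egln3 1.94% ± 0.173, 6.56% ± 0.731 and 3.05% ± 0.443. For each of the 3 shares no group overlapped another. The sum of the 3 was 1149 ± 27.0 normalized counts per kb in Old, 1788 ± 130 in Rejuvenated Old and 1940 ± 57.2 in Young libraries, so Young and Old, and Rejuvenated Old and Old, were separated by more than their spread.

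Hif1an (chr19:44562850-44576274, plus strand), which encodes the asparaginyl hydroxylase FIH, fell with co-culture. It had 1243 to 1364 normalized counts in Old (median 1326), 1091 to 1199 in Rejuvenated Old (median 1146) and 1301 to 1466 in Young libraries (median 1361). The Rejuvenated Old libraries lay below all others. Hif1an fell by 0.20 on the log2(value + 1) scale against Old (SE 0.03, adjusted p = 6.76e-05, limma), and by 0.25 against Young (adjusted p = 5.65e-07, limma). Young differed from Old by 0.05 (95% interval -0.02 to 0.12, adjusted p = 0.188, limma). Under 3 of 11 alternatives this difference passed the threshold, with Hif1an higher in Young (limma). They were scaling to the same total (adjusted p = 0.00296), scaling to the same 75th percentile (0.0310) and centring on chromosome medians (0.00572).

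**Figure D3:**
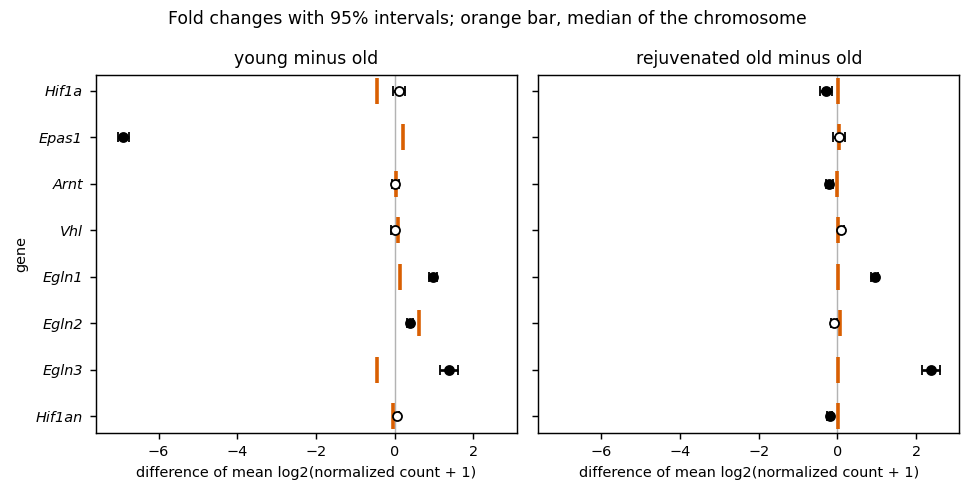
Difference of mean log2(normalized count + 1) (x axis) of the 8 tested genes (y axis) between Young and Old (left) and Rejuvenated Old and Old libraries (right), with 95% intervals; filled points passed an adjusted p of 0.05 and orange bars mark the median of all tested genes on the gene's chromosome. Epas1 stands at -6.89 on the left and 0.04 on the right, and Egln1 and Egln3 lie to the right of 0 in both panels.

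In all, 5 of the 8 tested genes passed the test between Rejuvenated Old and Old libraries, where 41.6% of all genes tested did. Egln1 and Egln3 were higher, and Hif1a, Arnt and Hif1an were lower. Between Young and Old 4 of 8 passed, where 85.7% of all genes did, with Egln1, Egln2 and Egln3 higher and Epas1 lower in Young. Against Young, 7 of 8 passed in Rejuvenated Old libraries, where 85.6% of all genes did; 3 were higher and 4 lower, against 44.1% and 41.5% of all genes. Libraries of Rejuvenated Old and Old did not overlap for 4 of the 8 (22.0% of all genes), those of Young and Old for 4 (73.9%), and those of Rejuvenated Old and Young for 6 (70.5%). The shares in the contrasts with Young were near or below those over all genes. Without Rejuvenated Old replicate 1, the count between Rejuvenated Old and Old was 5 as well.

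For 4 of the genes, those with the most similar profiles were looked up by the root mean square difference of their centred log2 values over the 18 libraries, among 13122 named genes. Egln1 was nearest to Tpi1 (difference 0.0788) and Ldha (0.0808), which encode glycolytic enzymes; both belong to families with near-identical copies, so their counts are uncertain. Tpi1 had a mean of 12251 normalized counts in Old, 22548 in Rejuvenated Old and 24210 in Young libraries. Hif1a was nearest to Usp9x (0.0595), a deubiquitinase gene, and Fasn (0.0603), the fatty acid synthase gene. For Epas1 the nearest were Ncf4 (0.168), a gene of the phagocyte oxidase complex listed at 0 in every Young library, and Fam19a5 (0.194). For Egln3 they were Dio3os (0.277) and Igf2 (0.287), both from imprinted regions. These differences were larger in absolute terms only and are not scaled to a gene's own spread. That spread (root mean square) was 3.26 for Epas1, 0.991 for Egln3, 0.460 for Egln1 and 0.214 for Hif1a. The points of a profile share their library and its size factor.

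**Figure D4:**
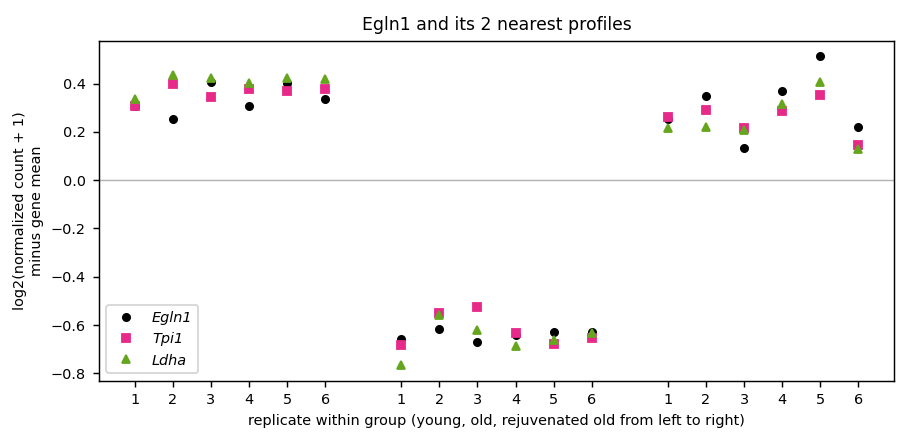
Log2(normalized count + 1) minus the gene's mean (y axis) of Egln1, Tpi1 and Ldha in each library (x axis, replicates of Young, Old and Rejuvenated Old from left to right). All 3 genes lie below 0 in the 6 Old libraries and above 0 in the other 12.

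The other parts of the pathway were described by gene lists. Of 21 genes for the VHL ligase and HIF stability, 8 were higher and 0 lower in Rejuvenated Old than in Old libraries, where 21.0% of all genes tested were higher and 20.6% lower, and the median difference was 0.03 on the log2(value + 1) scale. The largest rises were small: Elob, the elongin B adaptor of the VHL ligase, by 0.21 (adjusted p = 0.00640, limma) and Rack1, a scaffold for oxygen-independent loss of HIF-1α, by 0.20 (adjusted p = 0.00563). Between Young and Old 10 were higher and 6 lower, where 41.6% and 44.1% of all genes were. Siah2, a ligase for prolyl hydroxylases, was 0.83 higher and Elob 0.83 higher in Young, while Os9, a lectin gene, and Ptges3, a gene for an HSP90 co-chaperone, differed by -0.65 and -0.62.

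The list of coactivator genes also holds Cited2, a competitor. Of its 6 tested genes, 1 was higher and 2 lower in Rejuvenated Old than in Old libraries, where 21.0% of all genes were higher and 20.6% lower. Cited2, whose product competes with HIF-1α for p300 and is itself a HIF target, was 0.44 higher (10034 ± 421 against 7403 ± 250 normalized counts, SD, n = 6; adjusted p = 2.60e-09, limma). Ep300 and Ncoa1 were lower by differences of -0.18 and -0.14. In all, 1 was higher and 5 lower in Young than in Old, where 41.6% and 44.1% of all genes were, with Ep300 at 0.14, Crebbp at -0.97 and Ncoa1 at -0.70.

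Of 8 tested relatives of the HIFs with the same bHLH-PAS fold, 2 were higher and 3 lower in Rejuvenated Old than in Old libraries (all genes, 21.0% and 20.6%). The clock gene Npas2 was 0.48 higher (adjusted p = 1.06e-04, limma) and its partner Arntl2 0.23 higher, while Npas3 and Ahr, the dioxin receptor gene, differed by -0.62 and -0.30. Without Old replicate 1, or without Rejuvenated Old replicate 6, 3 of the 8 passed. Between Young and Old, where 85.7% of all genes passed (41.6% higher and 44.1% lower in Young), 3 of the 8 were higher and 5 lower. The ARNT paralogue Arnt2 was 1.47 higher in Young (579 ± 30.5 against 208 ± 17.4 normalized counts; adjusted p = 2.07e-15, limma), and Npas4 was 0.81 higher, while Npas3 differed by -1.66 and Arntl2 by -1.36.

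Other enzymes that use oxygen and 2-oxoglutarate or a related chemistry moved both ways. Of 17, 5 were higher and 4 lower in Rejuvenated Old than in Old libraries, beside 21.0% and 20.6% of all genes. P4htm, a transmembrane prolyl hydroxylase that can act on HIF, was 0.50 higher (adjusted p = 0.00127, limma) and the histone demethylase gene Kdm4b 0.37 higher, while the methylcytosine oxidase gene Tet3 and the demethylase gene Kdm5b differed by -0.34 and -0.20. Between Young and Old 4 were higher and 10 lower, beside 41.6% and 44.1% of all genes, with the lysyl hydroxylase gene Plod1 at 1.08, the X-linked demethylase gene Kdm6a at 0.92, Tet1 at -2.26 and Kdm5b at -1.19.

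Targets of the HIFs rose in larger numbers, on lists that were chosen with earlier results of these data known. Of 19 genes for glucose uptake, glycolysis and lactate export, 15 were higher and 2 lower in Rejuvenated Old than in Old libraries, where 21.0% of all genes were higher and 20.6% lower, with a median difference of 0.53 against 0.01 over all genes tested. Pgk1 (phosphoglycerate kinase; 16010 ± 835 against 6722 ± 602 normalized counts) was 1.25 higher (adjusted p = 7.71e-15, limma), and Pdk1, whose product keeps pyruvate out of the mitochondrial cycle, was 1.13 higher (adjusted p = 9.04e-16). Pfkfb3 and Pfkfb4, which set fructose 2,6-bisphosphate, went the other way, at -0.52 and -0.28. In Young, 13 were higher and 5 lower than in Old, where 41.6% of all genes were higher and 44.1% lower, with a median of 0.38 against -0.02 over all genes. Slc16a3, the lactate exporter gene, was 3.25 higher in Young and Aldoc 2.69 higher, while Pfkfb3 and Pfkp differed by -1.66 and -0.55. Tpi1 and Ldha, whose counts are uncertain because of near-identical copies, are on this list. Gapdh, also listed, had a mean of only 297 normalized counts over the 18 libraries, beside 36411 for Aldoa. Other genes of the list, Pgk1 among them, were not checked for such copies.

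Of 32 tested HIF targets outside glycolysis, 24 were higher and 5 lower in Rejuvenated Old than in Old libraries (all genes, 21.0% and 20.6%), with a median of 0.60 against 0.01 over all genes. Ndufa4l2, whose product dampens mitochondrial complex I, was 4.23 higher (3035 ± 335 against 160 ± 8.68 normalized counts, SD, n = 6; adjusted p = 1.31e-23, limma). Cox4i2, the hypoxic isoform of a cytochrome oxidase subunit, had 135 ± 39.2 normalized counts in Rejuvenated Old libraries and 6.46 ± 2.45 in Old ones (difference 4.22). It lay between 3.26 and 10.1 in Young libraries, so it passed the filter on abundance only through the Rejuvenated Old libraries. Its call, counted among the 24, is therefore no separate support. Car12, a carbonic anhydrase gene, and Bhlhe41, a repressor gene, were lower, at -1.68 and -0.72. In Young, 18 were higher and 10 lower than in Old (all genes, 41.6% and 44.1%), with a median of 0.44 against -0.02 over all genes. Stc2 lay between 1049 and 1249 normalized counts in Young and between 0.909 and 3.01 in Old libraries. Its median in Rejuvenated Old libraries was 4.25, so it passed the filter through the Young libraries, and the same limit holds for its call. Ndrg1 was 6.32 higher in Young (9603 ± 270 against 119 ± 8.48, adjusted p = 6.16e-22, limma). Adm (adrenomedullin) and Ddit4, an inhibitor of mTORC1, were lower in Young than in Old, at -4.17 and -2.15. The target lists and Egln1 and Egln3 share the Old libraries in both contrasts, and the members of each list were not treated as replicates. Without Rejuvenated Old replicate 1, the genes called between Rejuvenated Old and Old were 9 of the stability list, 3 of the coactivator list and 4 bHLH-PAS factors. The other lists then had 10 other oxygen-using enzymes, 17 glycolytic targets and 30 other targets called.

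**Figure D5:**
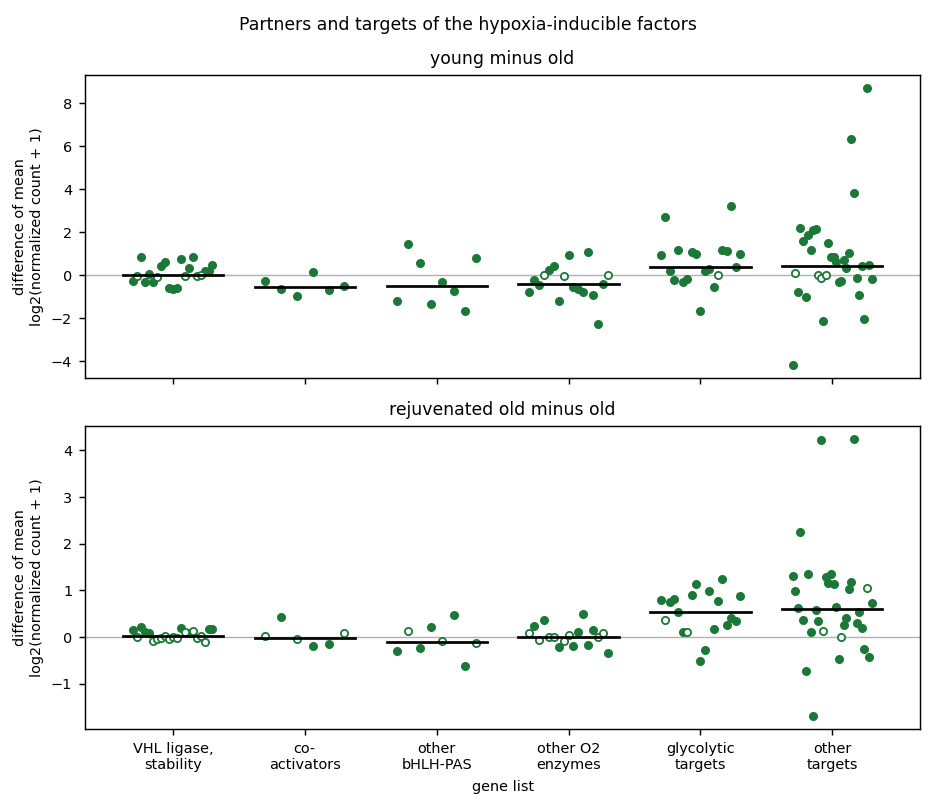
Difference of mean log2(normalized count + 1) (y axis) of each tested gene in the 6 lists (x axis) between Young and Old (top) and Rejuvenated Old and Old libraries (bottom); filled points passed an adjusted p of 0.05, open points did not, and black bars are medians of the lists. In the lower panel the medians of both target lists lie at 0.53 and 0.60 and those of the other 4 lists between -0.10 and 0.03.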

How the data were processed

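The authors sequenced stranded mRNA libraries and deposited a table of normalized counts. HISAT2, StringTie, featureCounts, DESeq2 and mm10 are named in the submitters' processing notes; versions are not given in the sources used here. The deposited signal was a read count divided by a size factor for each library: multiplied by that factor, 100.0% of values were whole within 0.1 reads in every library. All columns were mapped to a sample by name, and 958 rows had no symbol and were left out of named lists.

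The main test was limma 3.58.1 (eBayes with an intensity trend, R 4.3.3) on log2(value + 1) over all 18 libraries, for genes with a mean of at least 10 (14353 of 27179), with Benjamini-Hochberg adjustment and a threshold of 0.05. A fold change on this scale understates the change of low genes. edgeR 4.0.16 and DESeq2 1.42.0 on the recovered reads were among 11 alternatives, besides leaving out each library; they called 6213 and 6345 genes between Rejuvenated Old and Old, against 5971. Per-kilobase levels used exon lengths and positions of GENCODE M21. The scripts were tested on simulated data. Within groups, the counts of all 45 pairs of libraries differed by more than sampling noise (2.54 to 22.3, chi-square over its degrees of freedom), and each library was counted once.

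The 9 genes and the lists were chosen with earlier results of these data known. Named genes were all 9, for each list and both contrasts with Old the 2 called genes that rose most and the 2 that fell most, and the 2 nearest profiles of Hif1a, Epas1, Egln1 and Egln3.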

Additional observations from a re-analysis of the deposited data

Results flagged for a closer look

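In 27 groups of 6 libraries, 9 genes in 3 groups, the extreme libraries were compared with the rest by Dixon's test, which by chance picks about 1 group in 20, and 2 groups were picked. Hif3a had 3.26 normalized counts in Young replicate 1 and no read in the other Young libraries, which is 3 reads and at the limit of detection. Egln2 had 1453 normalized counts in Rejuvenated Old replicate 4, where the nearest library had 1356 and the lowest 1305. Without that library the difference of Egln2 between Rejuvenated Old and Old was -0.11 and passed the threshold (adjusted p = 0.0176, limma), whereas with it the adjusted p was 0.0520. It also passed without Old replicate 2 (adjusted p = 0.0215) and without Old replicate 3 (adjusted p = 0.0474).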

How the results depend on the processing

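Of 264 values of single genes under 11 alternatives, 240 kept their direction and their side of the threshold, and 411 of 432 did when a library was left out; the cause of the others was not tested. Egln1 and Egln3 against Old, Epas1 against Young, and Hif1a, Arnt and Hif1an between Rejuvenated Old and Old kept both in all of these. Tested genes called between Young and Old numbered 7 with libraries scaled to the same total and 8 when centred on chromosome medians, against 4. Hif1a, Arnt and Hif1an passed in both, and Vhl in the latter. Scaled to the same 75th percentile, 5 were called, with Hif1an added. Centring also gave 3 genes of the coactivator list called between Rejuvenated Old and Young, against 6. It turned Vhl (-0.19) and Egln2 (-0.10) between Young and Old, and Epas1 between Rejuvenated Old and Old (-0.0215). Egln1 between Rejuvenated Old and Young turned as well (0.0514), and Egln2 was no longer called there (-0.05, adjusted p = 0.195, limma). Scaling to the same total turned Vhl between Rejuvenated Old and Young (-0.00462); its call there was lost in 8 of the 18 fits without a library and with DESeq2 (adjusted p = 0.104), edgeR (0.0635), no filter (0.0509), the 75th percentile (0.196) and only the 2 groups compared (0.0626). Leaving out a library moved Vhl between Young and Old from -0.0198 to 0.0211, Egln1 between Rejuvenated Old and Young from -0.0700 to 0.00625, Epas1 between Rejuvenated Old and Old from -0.0112 to 0.0772, and the bHLH-PAS genes called between Rejuvenated Old and Old from 3 to 5. Replicate numbers did not pair the samples (correlations of deviations -0.152 to 0.0736), and with the replicate number as a block 12219, 5769 and 12210 genes were called between Young and Old, Rejuvenated Old and Old, and Rejuvenated Old and Young, against 12297, 5971 and 12288; members called stayed at 4, 5 and 7. Depth limited Hif3a, with at most 6 reads in a library.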
